A study of Mus musculus with 2 samples.

Results

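The RNA exosome is the complex that degrades and trims RNA from its 3' end, and its genes were followed here in cultured splenic B cells. The members were chosen by name, as the genes Exosc1 to Exosc10. All 10 were found among the 23288 genes of the files, each on 1 line per file. The set holds 3 cap subunits (Exosc1 to Exosc3), 6 ring subunits (Exosc4 to Exosc9) and the associated nuclease Exosc10, so it is wider than the ring alone. Exosc3 and Exosc10 lie on chromosome 4 and Exosc8 and Exosc9 on chromosome 3, and each of the others is the only member on its chromosome. 1 library came from Nedd4-/- B cells and 1 from Nedd4+/+ B cells, both taken from the spleens of fetal liver chimeric mice with a B6:129 strain background backcrossed to B6. Nedd4 encodes a ubiquitin ligase. All cells had 72 hours of culture with lipopolysaccharide (LPS) and interleukin 4, a stimulus for class switching to IgG1. The RNA had been depleted of ribosomal RNA, and neither the ages of the mice nor the extent of the Nedd4 deletion is stated in the labels. Since each genotype is 1 library, no difference below could be checked in a replicate, and none was tested.

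In the exosome, 6 ring proteins related to the bacterial enzyme RNase PH form a barrel through which RNA is threaded, and 3 cap proteins with RNA-binding domains sit on its entrance. The mammalian ring and cap have no nuclease activity of their own. RNA is cut by Dis3 or Dis3l below the barrel and by Exosc10 (Rrp6) on top of it, in the nucleus mostly with the helicase Skiv2l2 (Mtr4). The complex matures ribosomal RNA, removes promoter-associated transcripts and, in B cells, is known as a cofactor of the deaminase AID during class switching.

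Gene levels are in RPKM, the number of reads for every kilobase of a transcript relative to the mapped total. The 1 kb before each gene has its own level in the same unit. The libraries corresponded to 6.17 gigabases of reads for Nedd4-/- and 8.40 gigabases for Nedd4+/+. Nedd4 stood at 1.95 RPKM in the Nedd4-/- library, against 7.59 RPKM in the Nedd4+/+ library. Markers of B cells were present: 8 of them summed to 1051 RPKM in Nedd4-/- and 1265 RPKM in Nedd4+/+, none past 2-fold. Most of each sum came from Cd74, at 650 RPKM in Nedd4-/- and 758 RPKM in Nedd4+/+. The inhibitory receptor Cd22 was at 26.8 RPKM in Nedd4-/- and 49.1 RPKM in Nedd4+/+, and the transcription factor Pax5 at 24.5 RPKM in Nedd4-/- and 35.6 RPKM in Nedd4+/+. The kinase Blk was at 5.11 RPKM in Nedd4-/- and 4.73 RPKM in Nedd4+/+, and the antigen receptor chain Cd79a at 15.6 RPKM in Nedd4-/- and 13.9 RPKM in Nedd4+/+. The summed level of 7 T cell markers was 2.72 RPKM in Nedd4-/- and 2.11 RPKM in Nedd4+/+, and that of 8 myeloid markers 3.44 RPKM in Nedd4-/- and 1.89 RPKM in Nedd4+/+, with none of these genes at 0 in both libraries. Of these genes, the kinase gene Lck of T cells was the only one tested, at 1.08 RPKM in Nedd4-/- and 1.41 RPKM in Nedd4+/+ (log2 ratio with 1 RPKM added -0.21). The other T cell markers and most myeloid markers were instead higher in Nedd4-/-, each averaging below 1 RPKM. The libraries also differed in sex-linked RNA. Xist, the RNA of the inactive X chromosome, was at 0.0958 RPKM in Nedd4-/- and 23.7 RPKM in Nedd4+/+, and the Y-linked gene Ddx3y at 10.6 RPKM in Nedd4-/- and 2.63 RPKM in Nedd4+/+. Both kinds of RNA, from Xist and from the Y chromosome, were present in Nedd4+/+. The difference between the libraries cannot be told apart from genotype in any value below. Less RNA per cell and fewer cells expressing a gene cannot be told apart either.

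The upstream windows ended at the start of each gene, so the starts of members with the highest and the lowest upstream levels are shown. They run 5' to 3' from 250 bases before to 50 bases after the RefSeq start in build GRCm38.p6, whereas the levels were made on mm9. Exosc6 and Exosc7 had the highest upstream levels, and Exosc2 and Exosc3 were among the lowest. Capitals mark matches, on either strand, to the letters CGGAAG (a core of ETS factor sites), GCGCA and GCGC with 1 base between them (an NRF1-like palindrome), AANATGGCG (YY1-like) and CCAAT.
Exosc6, chr8:111056089-111056388, plus strand: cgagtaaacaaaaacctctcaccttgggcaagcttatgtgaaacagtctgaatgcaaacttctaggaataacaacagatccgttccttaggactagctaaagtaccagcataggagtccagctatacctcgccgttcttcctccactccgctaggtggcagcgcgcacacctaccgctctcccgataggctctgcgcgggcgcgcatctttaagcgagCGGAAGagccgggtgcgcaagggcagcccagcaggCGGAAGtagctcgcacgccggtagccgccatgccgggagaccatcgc
Exosc7, chr9:123112981-123113280, plus strand: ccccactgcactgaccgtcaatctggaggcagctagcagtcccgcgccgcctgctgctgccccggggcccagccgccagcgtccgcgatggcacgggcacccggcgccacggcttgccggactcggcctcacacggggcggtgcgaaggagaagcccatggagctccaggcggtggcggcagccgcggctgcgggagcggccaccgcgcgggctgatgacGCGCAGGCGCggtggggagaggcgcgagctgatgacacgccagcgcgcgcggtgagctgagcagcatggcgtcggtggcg
Exosc2, chr2:31670465-31670764, plus strand: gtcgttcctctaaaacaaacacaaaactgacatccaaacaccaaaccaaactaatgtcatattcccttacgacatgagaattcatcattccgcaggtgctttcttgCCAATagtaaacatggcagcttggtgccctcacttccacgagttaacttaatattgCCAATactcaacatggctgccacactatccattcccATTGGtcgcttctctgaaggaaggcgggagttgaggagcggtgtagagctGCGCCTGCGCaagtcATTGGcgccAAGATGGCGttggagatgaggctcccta
Exosc3, chr4:45320567-45320866, minus strand: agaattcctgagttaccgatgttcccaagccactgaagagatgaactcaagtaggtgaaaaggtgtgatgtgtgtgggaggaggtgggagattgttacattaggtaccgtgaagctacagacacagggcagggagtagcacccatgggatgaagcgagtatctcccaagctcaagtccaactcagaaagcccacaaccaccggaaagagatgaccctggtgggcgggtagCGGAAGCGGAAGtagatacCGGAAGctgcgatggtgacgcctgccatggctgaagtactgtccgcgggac
The Exosc6 start held 2 matches to CGGAAG and the Exosc3 start 3, while those of Exosc2 and Exosc7 held 1 match each to the NRF1-like palindrome. Of 10 members, 8 had a promoter entry, and Exosc4 and Exosc9 did not. CGGAAG was found in 4 of the 8 (Exosc3, Exosc5, Exosc6 and Exosc8), against 16.9% of all 32851 promoters of the same length. The NRF1-like palindrome was found in 4 of the 8 (Exosc1, Exosc2, Exosc5 and Exosc7), against 4.60% of all promoters. CCAAT was in 3 of the 8, against 37.4% of all, and AANATGGCG in 1, against 2.38%. TATAAA was in none of the 8, against 13.6% of all. No match overlapped another in the 4 starts shown, and the motifs were chosen after the sequences had been seen. The 8 starts held between 11 and 41 CpG dinucleotides (median 21.5), where the median of all promoters was 7. GC content ran from 48.0% for Exosc2 to 75.7% for Exosc8, against a median of 52.7% over all promoters.

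Every exosome gene was expressed at an intermediate to high level in both libraries, and the order of the genes was nearly the same. Exosc9 (Rrp45), a ring subunit, was the highest member, with 19.8 RPKM in the Nedd4-/- library and 23.2 RPKM in the Nedd4+/+ library. Exosc4 (Rrp41), its partner in the ring, was the lowest, with 5.65 RPKM in Nedd4-/- and 6.85 RPKM in Nedd4+/+. Among the 9405 genes tested, those averaging at least 1 RPKM over the libraries, these levels lay at percentiles 90.4 and 60.7 in Nedd4-/- and at percentiles 88.5 and 57.2 in Nedd4+/+. The highest level was thus 3.51 times the lowest in Nedd4-/- and 3.39 times in Nedd4+/+. Of the 10 genes, 7 held the same rank in both libraries, and Exosc3, Exosc7 and Exosc8 changed places among ranks 3 to 5.

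**Figure D1:**
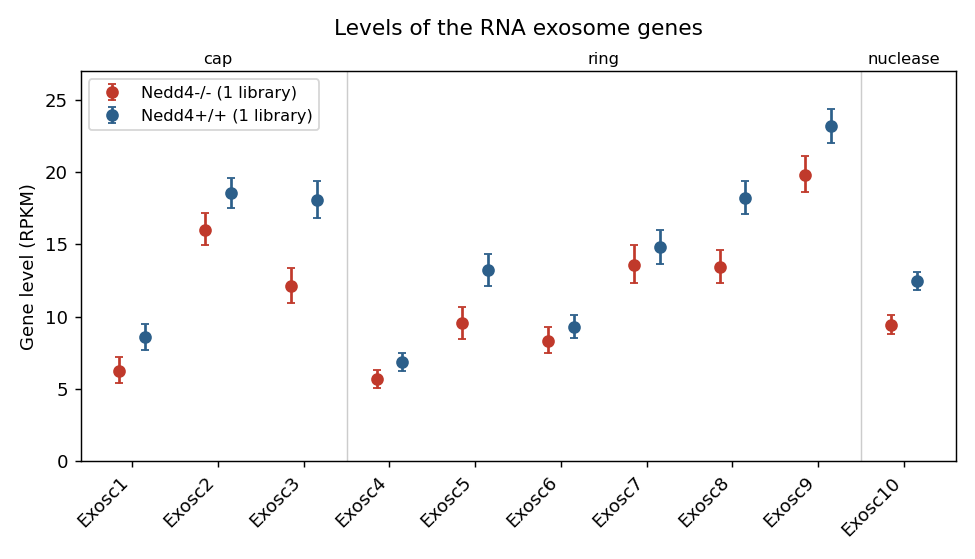
Gene level in RPKM (y axis, starting at 0) of the 10 exosome genes (x axis, by role in the complex) in the 1 Nedd4-/- and the 1 Nedd4+/+ library. Points are the levels and bars the exact Poisson 95% counting intervals of the read pairs. Exosc9 is highest (19.8 RPKM in Nedd4-/-, 23.2 RPKM in Nedd4+/+) and Exosc4 lowest (5.65 RPKM in Nedd4-/-, 6.85 RPKM in Nedd4+/+).

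Exact Poisson 95% intervals of the read pairs, which cover counting error only, separated some neighbours in this order and not others. The read pairs of genes were worked out from RPKM, an assumed transcript length and the depth, and were not checked against counts. In the Nedd4-/- library Exosc9 stood apart from Exosc2 and Exosc2 from Exosc7. The intervals of Exosc7, Exosc8 and Exosc3 overlapped from each to the next, as did those of Exosc5, Exosc10 and Exosc6, and those of Exosc1 and Exosc4. In the Nedd4+/+ library Exosc9 again stood apart from Exosc2. There Exosc2, Exosc8 and Exosc3 overlapped from each to the next, as did Exosc7, Exosc5 and Exosc10, and then Exosc6 and Exosc1, with Exosc4 apart below them.

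The 3 cap genes were not lower by the same amount. Exosc3 (Rrp40), a cap subunit, had 12.1 RPKM in the Nedd4-/- library and 18.1 RPKM in the Nedd4+/+ library. Its log2 ratio was -0.54 with 1 RPKM added to each level, as in every log2 ratio of a gene below unless stated otherwise. The exact Clopper-Pearson 95% counting interval, computed without the added 1 RPKM, ran from -0.75 to -0.40. Exosc2 (Rrp4), whose level in Nedd4+/+ was nearly the same, had 16.0 RPKM in Nedd4-/- and 18.5 RPKM in Nedd4+/+, a log2 ratio of -0.20 (counting interval -0.34 to -0.08). Their intervals did not overlap, so within the cap the levels of Exosc3 and Exosc2 parted by more than counting error between these libraries. Exosc1 (Csl4), the third cap subunit, had the lowest level of the cap, at 6.27 RPKM in Nedd4-/- and 8.57 RPKM in Nedd4+/+ (log2 ratio -0.40, interval -0.71 to -0.20).

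The 6 ring genes are described by the partners they form. In the assembled ring, known from the human complex, Exosc9 pairs with Exosc4, Exosc8 with Exosc5 and Exosc7 with Exosc6. Exosc8 (Rrp43) had 13.4 RPKM in Nedd4-/- and 18.2 RPKM in Nedd4+/+, and Exosc5 (Rrp46) 9.53 RPKM in Nedd4-/- and 13.2 RPKM in Nedd4+/+. Exosc7 (Rrp42) had 13.6 RPKM in Nedd4-/- and 14.8 RPKM in Nedd4+/+, and Exosc6 (Mtr3) 8.35 RPKM in Nedd4-/- and 9.28 RPKM in Nedd4+/+. The log2 ratios were -0.41 for Exosc8 and -0.43 for Exosc5, -0.11 for Exosc7 and -0.14 for Exosc6, and -0.21 for Exosc9 and -0.24 for Exosc4.

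Each partner pair kept nearly the same proportion in both libraries. The level of Exosc9 was 3.51 times that of Exosc4 in Nedd4-/- (counting interval 3.09 to 4.002) and 3.39 times in Nedd4+/+ (3.06 to 3.75). Exosc8 was at 1.41 times Exosc5 in Nedd4-/- (1.22 to 1.63) and 1.38 times in Nedd4+/+ (1.24 to 1.53). Exosc7 was at 1.63 times Exosc6 in Nedd4-/- (1.41 to 1.88) and 1.59 times in Nedd4+/+ (1.42 to 1.79). These proportions do not depend on how the libraries are scaled to each other. In the GENCODE annotation of GRCm38, exons of other genes overlap Exosc4, Exosc6, Exosc8 and Exosc9. The part of those genes in the proportions was not tested. Without a pseudocount the gaps between partners' log2 ratios were 0.030, 0.033 and 0.052, and the gaps of the other 12 pairings of ring genes ran from 0.071 to 0.35. The counting intervals of the single ratios were wider than the gaps between partners, so closeness beyond counting error was not detectable at this depth, and the pattern was noted after the values were seen.

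Exosc10, the nuclease that binds the top of the barrel, had 9.45 RPKM in the Nedd4-/- library and 12.5 RPKM in the Nedd4+/+ library (log2 ratio -0.37, interval -0.53 to -0.27). Its share of the summed level of the 10 genes was 8.27% in Nedd4-/- and 8.70% in Nedd4+/+. The cap held 30.1% of that sum in Nedd4-/- and 31.6% in Nedd4+/+, and the ring 61.6% in Nedd4-/- and 59.7% in Nedd4+/+. The make-up of the set by role thus moved by less than 2 percentage points.

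**Figure D2:**
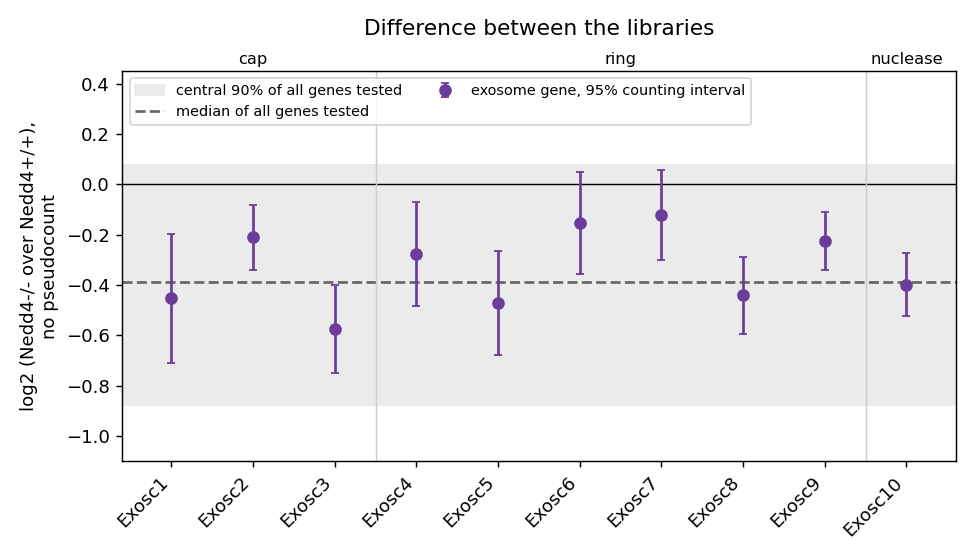
Log2 ratio of Nedd4-/- over Nedd4+/+ without pseudocount (y axis) for the 10 exosome genes (x axis, by role). Points are the ratios, bars exact 95% counting intervals, the dashed line the median (-0.39) and the grey band the central 90% of the 9405 genes tested. All points lie inside the band, and the ring partners (Exosc4 and Exosc9, Exosc5 and Exosc8, Exosc6 and Exosc7) lie at similar heights.

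As a set, the exosome genes had a median log2 ratio near that of all genes tested and less negative than that of genes at their levels. All 10 were lower in RPKM in the Nedd4-/- library, as were 92.7% of the genes tested. The share of sequenced bases that fell in transcripts was 24.4% in Nedd4-/- and 32.6% in Nedd4+/+, and the part of this gap in the lower levels was not tested. On a scale that gives the listed genes the same sum in each library, Exosc2, Exosc4, Exosc6, Exosc7 and Exosc9 were higher in Nedd4-/- instead. The log2 ratios of the 10 genes on that scale, without pseudocount, ran from -0.21 for Exosc3 to 0.24 for Exosc7. That scale moves the median of all genes by 0.36. The median log2 ratio of the members was -0.30, and that of all genes tested -0.31. Relative to this value for all genes the members ran from -0.23 for Exosc3 to 0.20 for Exosc7, with 5 below and 5 above it. None of the 10 was at least 2-fold lower, a change shown by 1.15% of all genes tested, and none was at least 2-fold higher, against 0.138%. Relative to the median, likewise, none of the 10 was 2-fold lower, against 0.223% of all genes tested, or 2-fold higher, against 0.276%. Among the 3860 genes averaging 5 to 25 RPKM, the range that holds all members, 1.32% were at least 2-fold lower. The log2 ratios of the members had an SD of 0.14 across genes, where that of all genes tested was 0.26. All genes tested reach down to a mean of 1 RPKM, and no SD was computed for genes at the members' levels.

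The counting intervals, which hold no pseudocount, were set against 0 and against the median of all genes on the same scale, -0.39. The interval lay below 0 for 8 members, the exceptions being Exosc6 (-0.36 to 0.05) and Exosc7 (-0.30 to 0.06), and it did so for 74.4% of 9231 genes with a known length. It lay above -0.39 for 4 of the 10 members (Exosc2, Exosc6, Exosc7 and Exosc9), against 18.7% of these genes. It lay below -0.39 for 1 member, Exosc3, against 23.3%. Among the 3804 genes of known length averaging 5 to 25 RPKM, these shares were 19.1% above and 30.3% below.

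Among genes of proteins that work with the barrel, the nuclear cofactors had a median near that of all genes. Single genes lay further from it. Dis3, the nuclease at its base, had 8.91 RPKM in Nedd4-/- and 11.7 RPKM in Nedd4+/+ (log2 ratio -0.36), and Dis3l, its cytoplasmic relative, 2.40 RPKM in Nedd4-/- and 2.73 RPKM in Nedd4+/+ (-0.14). The difference of Dis3 was thus nearly that of Exosc10. All 10 nuclear cofactors were tested, none passed the 2-fold rule in either direction, and their median log2 ratio was -0.34, with 6 below and 4 above the median of all genes. Rbm7, an RNA-binding subunit of the NEXT complex, was at 17.2 RPKM in Nedd4-/- and 23.5 RPKM in Nedd4+/+ (-0.43). Skiv2l2, the helicase that feeds RNA to the nuclear exosome, was at 14.7 RPKM in Nedd4-/- and 19.9 RPKM in Nedd4+/+ (-0.41). At the other end were Papd7, a noncanonical poly(A) polymerase (-0.06), and Mphosph6, a protein that docks Skiv2l2 on the exosome, at 5.50 RPKM in Nedd4-/- and 5.02 RPKM in Nedd4+/+ (0.11, interval -0.16 to 0.42).

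The cytoplasmic SKI complex hands messenger RNA to the exosome. Of 4 genes on its list, all tested, 3 were below and 1 above the median of all genes and none was past 2-fold, with a median log2 ratio of -0.47. Hbs1l, a GTPase of ribosome rescue whose human locus also makes an exosome-SKI adaptor, had 8.80 RPKM in Nedd4-/- and 14.3 RPKM in Nedd4+/+ (-0.65, interval -0.83 to -0.58). Skiv2l, the helicase of the complex, stood at -0.48 and its scaffold Ttc37 at -0.47, while Wdr61, which also belongs to the PAF elongation complex, had 19.4 RPKM in Nedd4-/- and 22.2 RPKM in Nedd4+/+ (-0.19). Of 17 tested genes of decapping and decay from the 5' end, none passed 2-fold, 6 were below and 11 above the median of all genes, and their median was -0.27. Xrn2, the nuclear exonuclease of that direction, was at 19.4 RPKM in Nedd4-/- and 28.2 RPKM in Nedd4+/+ (-0.52), and Lsm4 at -0.42, whereas Edc3 (0.03) and Lsm6 (0.20) were the highest.

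The 1 kb upstream of the exosome genes held anything between near-silent sequence and the ends of other genes. Exosc9, Exosc3 and Exosc2 had upstream levels of 0.151, 0.179 and 0.184 RPKM in Nedd4-/- and of 0.183, 0.126 and 0.181 RPKM in Nedd4+/+. Each of these 6 values rests on fewer than 8 read pairs, and the means of these 3 windows were below the 0.2 RPKM required for a comparison. No exon of another gene lay in these windows in the GENCODE annotation of GRCm38. The other 7 windows were tested, and 6 of them held exons of a neighbour, the exception being Exosc4.

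**Figure D3:**
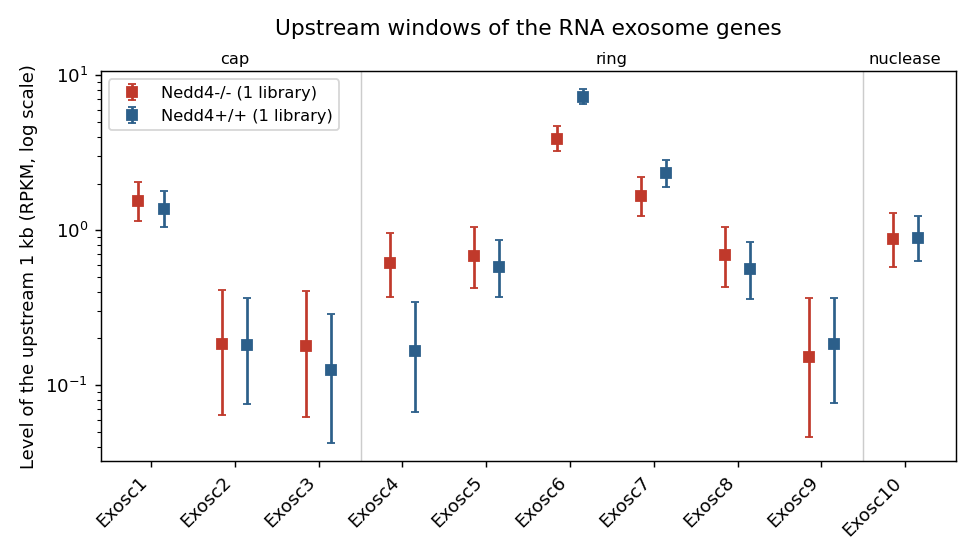
Level of the 1 kb upstream of each exosome gene in RPKM (y axis, log scale) in the 1 Nedd4-/- and the 1 Nedd4+/+ library, by gene and role (x axis). Points are the levels and bars exact Poisson 95% counting intervals. The Exosc6 window is highest (3.90 RPKM in Nedd4-/-, 7.29 RPKM in Nedd4+/+), and the Exosc4 window is higher in Nedd4-/- (0.616 RPKM, against 0.167 RPKM in Nedd4+/+).

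Upstream of Exosc6, the window had 3.90 RPKM in the Nedd4-/- library and 7.29 RPKM in the Nedd4+/+ library. On a log2 scale with 0.1 RPKM added, used for all windows, the ratio was -0.88, or -1.30 once the median of all windows was subtracted. The window amounted to 46.8% of the Exosc6 level in Nedd4-/- and to 78.5% in Nedd4+/+, the highest shares of any member. Aars, the alanyl-tRNA synthetase gene, precedes Exosc6 on the same strand. In GENCODE an Aars transcript runs through the whole window and all of Exosc6, while in RefSeq Aars ends 769 bases before Exosc6 and fills 231 bases of the window. Aars had 14.7 RPKM in Nedd4-/- and 28.0 RPKM in Nedd4+/+. Without pseudocount, the log2 ratios were -0.92 for Aars, -0.90 for the window (interval -1.22 to -0.59) and -0.15 for Exosc6 (-0.36 to 0.05). The window and Exosc6 itself therefore differed by more than counting error. Reads of an extended Aars transcript and of Exosc6 cannot be told apart, and the part of Aars in the values of Exosc6 was not tested.

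Upstream of Exosc7, the window was lower as well, with 1.67 RPKM in Nedd4-/- and 2.33 RPKM in Nedd4+/+ (log2 ratio -0.46; interval without pseudocount -1.002 to 0.02). Zdhhc3, a palmitoyltransferase gene that starts on the opposite strand, fills 609 of its 1000 bases in GRCm38. Zdhhc3 had 3.43 RPKM in Nedd4-/- and 4.12 RPKM in Nedd4+/+, a log2 ratio of -0.27 without pseudocount. The interval of the window held both this value and that of Exosc7 (-0.12).

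Exosc4 was the member whose window was higher in the Nedd4-/- library by more than counting error. Its window had 0.616 RPKM in Nedd4-/- (18.8 read pairs) and 0.167 RPKM in Nedd4+/+ (6.96 read pairs), a log2 ratio of 1.42 with a counting interval without pseudocount of 0.56 to 3.38. This was the only 1 of the 7 tested windows at least 2-fold higher, and none was 2-fold lower, where 19.8% and 0.794% of all 11837 windows tested were. The window amounted to 10.9% of the Exosc4 level in Nedd4-/- and to 2.44% in Nedd4+/+. With 1 RPKM added in place of 0.1 RPKM it no longer passed the 2-fold rule. The difference of 0.449 RPKM stood beside a median difference of 0.133 RPKM over all windows tested, most of which were thus higher in Nedd4-/-. Oplah, the oxoprolinase gene on the opposite strand, shares 236 bases of exon with Exosc4, and was at 0.473 RPKM in Nedd4-/- and 0.258 RPKM in Nedd4+/+.

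The remaining tested windows, like that of Exosc7, differed by less than counting error. Exosc1 had an upstream level of 1.55 RPKM in Nedd4-/- and 1.38 RPKM in Nedd4+/+, and its divergent neighbour Zdhhc16 was at 4.97 RPKM in Nedd4-/- and 6.48 RPKM in Nedd4+/+. Exosc10 had 0.882 RPKM upstream in Nedd4-/- and 0.894 RPKM in Nedd4+/+, with the end of the kinase gene Mtor in the window. Exosc8 had 0.692 RPKM in Nedd4-/- and 0.562 RPKM in Nedd4+/+ beside the start of Alg5, a gene of N-glycan synthesis. Exosc5 had 0.685 RPKM in Nedd4-/- and 0.577 RPKM in Nedd4+/+ beside the start of Bckdha, a gene of branched-chain amino acid breakdown. The median log2 ratio of the 7 tested member windows was 0.16, and that of all windows 0.41. Counting intervals lay above 0 for 1 of the 7 members and below 0 for 1, against 19.6% and 6.67% of all windows. Against the median of the windows without pseudocount, 0.54, the interval lay above it for Exosc4, against 5.75% of all windows, and below it for Exosc6 and Exosc7, against 18.1%.

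**Figure D4:**
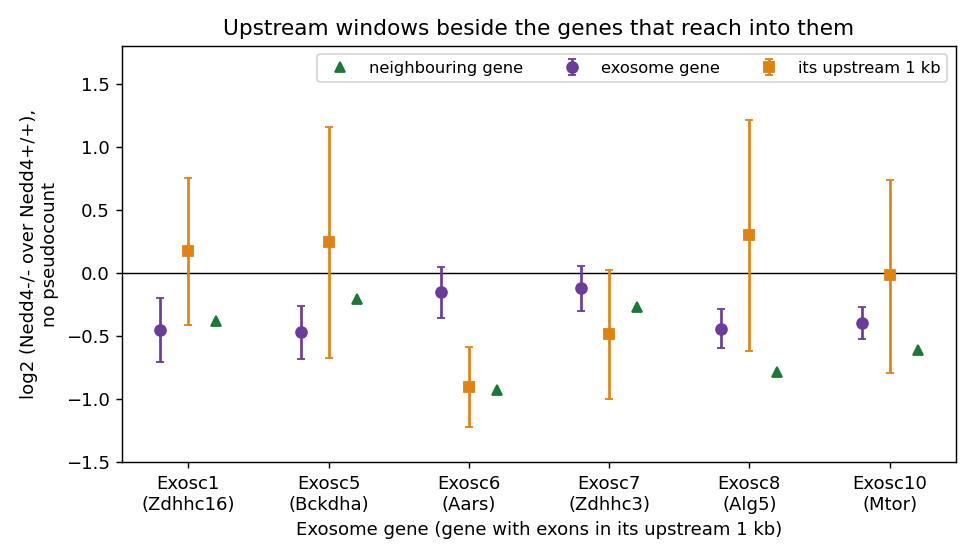
Log2 ratio of Nedd4-/- over Nedd4+/+ without pseudocount (y axis) for 6 exosome genes, their upstream 1 kb and the gene with exons in that window (x axis, neighbour in brackets). Bars are exact 95% counting intervals, and no interval was computed for the neighbours. At Exosc6 the window (-0.90) lies beside Aars (-0.92) and away from Exosc6 (-0.15).

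Exons of other genes also touched members themselves, which matters where strand is not known. Ccna2, the cyclin A2 gene, overlaps 378 of the 1617 bases of Exosc9 from the opposite strand and was at 40.2 RPKM in Nedd4-/- and 47.5 RPKM in Nedd4+/+. Without strand, reads of this overlap cannot be told apart, and Exosc9 was the highest member. Its log2 ratio without pseudocount was -0.22, and that of Ccna2 was -0.24. Smaller overlaps, of 89 bases with Supt20 at Exosc8 and of 54 bases with Gm13427 at Exosc2, involve genes without a value here.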

How the data were processed

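Of the tools, TopHat and Cufflinks are named with build mm9 per the submitters' processing notes, and settings for strand or counting are stated in neither labels nor headers. Gene levels are RPKM per the file headers, as the authors deposited them. The second deposited column proved to be a ratio, the window's level over the gene's RPKM plus 0.0001. Multiplied back, it gave whole read bases in a 1000-nt window for 100% of 17508 low windows in Nedd4-/- and 14333 in Nedd4+/+, within 0.05 bases. That step gave depth (pairs of 101-nt reads, 202 bases). The authors' deposited RPKM was compared as log2 ratios with 1 RPKM added, among genes averaging at least 1 RPKM, and 2-fold was a fixed rule of size. Counting intervals (Clopper-Pearson for ratios, Poisson for levels, 95%) used GENCODE M21 transcript lengths, known for 22622 genes. Those of ratios were tried only on simulated independent counts, the model they assume, which cannot test dependence between real reads. All counting intervals cover counting error only, since reads are not independent molecules. Levels between genes are compared per length, and whether the deposited RPKM used the GENCODE lengths was not checked. Neighbours and promoters come from GRCm38, so no mm9 coordinates are given. The members and lists were chosen with earlier results of these data known. From each list, the 2 genes at each end of the log2 ratios, from 1 RPKM up, are named, besides the members, Nedd4 and genes in the upstream windows. Xist, Ddx3y, Cd74 and the genes that overlap members were named after their values were seen. Alternatives were other pseudocounts, minimum levels and scalings. Python 3.11.15, numpy 2.4.6, pandas 2.3.3 and scipy 1.17.1 were used.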

Additional observations from a re-analysis of the deposited data

How the results depend on the processing

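With 1 library per genotype no library could be left out. No paired analysis was possible because each genotype has 1 library. The count of members at least 2-fold lower or higher was 0 under every pseudocount, minimum level and scaling tried. The median log2 ratio of the members, -0.30, stayed negative under other pseudocounts and minimum levels, was 0.011 relative to the median of all genes and was 0.022 on the scale with equal sums. The count of members below the median of all genes was 5, became 10 with no minimum level, where that median is 0.02, and 4 with a minimum of 5 RPKM. The median upstream log2 ratio, 0.16, was -0.46 over the 3 windows of at least 1 RPKM and -0.25 relative to the median of all windows. The 1 window at least 2-fold higher, that of Exosc4, became 0 with 1 RPKM added and with a minimum of 1 RPKM, which leaves it out. The count was also 0 with the deposited ratio in place of the level and 0.1 added to it. Before that constant was added, the deposited ratios of Exosc4 were 0.109 in Nedd4-/- and 0.0244 in Nedd4+/+, more than 2-fold apart. Windows at least 2-fold lower were 0, and 1 relative to the median of all windows, that of Exosc6. Upstream values of few read pairs are limited by depth, as are ratios of the windows of Exosc2, Exosc3 and Exosc9.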

Other observations

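Ribosome biogenesis, a process to which the nuclear exosome contributes by trimming ribosomal RNA precursors, was represented by 54 tested genes. Their median log2 ratio was -0.36, with 33 below and 21 above the median of all genes, and none was past 2-fold in either direction. Nop14, a factor of the small ribosomal subunit, had 4.28 RPKM in the Nedd4-/- library and 8.47 RPKM in the Nedd4+/+ library (-0.84, counting interval without pseudocount -1.16 to -0.81). Utp3, of the same processing machinery, had 4.93 RPKM in Nedd4-/- and 8.34 RPKM in Nedd4+/+ (-0.66). At the upper end were Nop10, a subunit of H/ACA ribonucleoproteins, at 39.2 RPKM in Nedd4-/- and 41.4 RPKM in Nedd4+/+ (-0.08), and nucleolin, Ncl, at 23.6 RPKM in Nedd4-/- and 25.5 RPKM in Nedd4+/+ (-0.11).

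Deadenylation, the shortening of poly(A) tails that precedes decay of messenger RNA, was represented by 16 tested genes with a median log2 ratio of -0.27. Of these, 6 lay below and 10 above the median of all genes, and none was past 2-fold. Parn, a poly(A)-specific ribonuclease, had 3.45 RPKM in Nedd4-/- and 5.12 RPKM in Nedd4+/+ (-0.46), and Cnot2, a scaffold subunit of the CCR4-NOT complex, 13.4 RPKM in Nedd4-/- and 18.1 RPKM in Nedd4+/+ (-0.41). Btg1, an antiproliferative protein that binds deadenylases, had 5.51 RPKM in Nedd4-/- and 5.25 RPKM in Nedd4+/+ (0.06), and Cnot3 a log2 ratio of -0.06.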
